A study of Mus musculus with 9 samples.

Results

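Collagen chain genes were taken as every row of the deposited count table whose symbol is Col, a number, the letter a and a number, which gave 44 genes of 24421 rows. Collagens are proteins of the extracellular matrix whose chains wind in groups into a triple helix. Chains of the fibrillar class assemble into fibers, those of the basement membrane class into sheets around vessels and at the brain surface, and fibril-associated and beaded filament chains decorate or bridge these structures. In healthy brain, fibrillar collagen is largely restricted to vessels and meninges, and glioma cells of mesenchymal character can make it themselves. The 44 genes comprise 11 fibrillar, 8 basement membrane, 9 beaded filament and anchoring, 3 short chain network, 9 fibril-associated and 4 transmembrane chains.

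RNA sequencing was performed on 9 ex vivo samples from brains of C57BL/6 mice. The control group held 3 libraries from mice given vehicle, and the BAL101553 group held 3 libraries from mice given BAL101553 (lisavanbulin), a prodrug that acts on microtubules. Per the study's methods, both were SB28 cells, a mouse glioma line that carries GFP, implanted in the brain and sorted as CD45-CD11b-GFP+ cells, whereas the labels give their cell type as whole tissue. The methods describe fewer ex vivo samples per group than the table holds, and do not say which libraries these are. BAL101553 tumors were harvested later than controls to match tumor volume, so that treatment and time of growth cannot be told apart. The 3 astrocyte-labelled libraries carry BAL101553 as their treatment label, and how they were isolated is not given in the sources used here. Nothing in the labels says whether libraries came from separate mice, so p-values measure the spread between these libraries.

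Library totals lay between 22919523 and 34013875 counts. The astrocyte marker list summed to between 11785 and 14508 CPM (counts scaled to the size of each library by TMM) in the astrocyte-labelled libraries, but the oligodendrocyte list reached 10282 to 12723 CPM in the same libraries, the pericyte list 833 to 974 CPM, the microglia and macrophage list 425 to 915 CPM and the endothelium list 465 to 513 CPM. In the 6 tumor libraries the pericyte list summed to at most 7.32 CPM and the microglia list to at most 4.49 CPM, whereas the endothelium and astrocyte lists, carried there mostly by *Cdh5* and *Gja1*, reached 859 and 971 CPM. The fibroblast list summed to between 72.9 and 80.9 CPM in the astrocyte-labelled libraries and to at most 38.2 CPM in the tumor libraries. In bulk RNA, fewer cells of a type and less RNA per cell cannot be told apart.

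Among the collagen genes, 250 bases upstream of the start site are printed for 4 chains that were higher after BAL101553 and for *Col6a5*, which was at most 0.137 CPM in the tumor libraries and at least 23.1 CPM in the astrocyte-labelled ones. The sequences are from RefSeq on GRCm38.p6, read in the direction of transcription, in windows that hold no annotated exon. Capitals mark 3 promoter motifs on either strand: the CCAAT box, which reads ATTGG on the other strand, the TATA box, searched as TATAAA with its reverse form TTTATA, and the GC box, searched as GGGCGG with its reverse form CCGCCC.
*Col3a1*, chr1:45311288-45311537, plus strand: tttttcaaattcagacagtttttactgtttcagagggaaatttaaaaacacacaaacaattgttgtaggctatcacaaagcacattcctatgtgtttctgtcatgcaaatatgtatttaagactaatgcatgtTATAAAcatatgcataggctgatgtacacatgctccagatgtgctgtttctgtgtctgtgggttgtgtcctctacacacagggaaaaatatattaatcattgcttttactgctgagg
*Col6a3*, chr1:90843972-90844221, minus strand: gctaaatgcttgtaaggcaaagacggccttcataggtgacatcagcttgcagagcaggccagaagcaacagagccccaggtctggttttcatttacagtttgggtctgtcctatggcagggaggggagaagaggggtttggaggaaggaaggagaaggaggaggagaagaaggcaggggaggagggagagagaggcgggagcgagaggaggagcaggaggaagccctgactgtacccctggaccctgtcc
*Col8a1*, chr16:57754738-57754987, minus strand: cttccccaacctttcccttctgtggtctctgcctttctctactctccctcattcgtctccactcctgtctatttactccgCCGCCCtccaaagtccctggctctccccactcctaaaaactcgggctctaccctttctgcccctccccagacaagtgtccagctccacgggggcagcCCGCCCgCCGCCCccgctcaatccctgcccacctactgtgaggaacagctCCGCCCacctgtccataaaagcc
*Col11a1*, chr3:114030290-114030539, plus strand: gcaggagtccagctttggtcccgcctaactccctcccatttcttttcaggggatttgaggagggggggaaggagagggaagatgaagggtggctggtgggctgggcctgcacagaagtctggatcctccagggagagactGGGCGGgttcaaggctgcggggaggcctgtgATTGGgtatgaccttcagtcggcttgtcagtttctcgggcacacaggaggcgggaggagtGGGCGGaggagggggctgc
*Col6a5*, chr9:105960644-105960893, minus strand: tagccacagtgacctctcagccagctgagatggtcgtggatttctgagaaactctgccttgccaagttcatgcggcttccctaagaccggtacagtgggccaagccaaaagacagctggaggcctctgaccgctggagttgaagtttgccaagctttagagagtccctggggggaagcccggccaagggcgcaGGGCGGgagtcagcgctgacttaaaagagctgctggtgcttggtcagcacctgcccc
*Col3a1* held 1 TATAAA and none of the other 2 motifs, *Col8a1* held 4 GGGCGG on either strand, and *Col6a3* held none of the 3 motifs. Promoter windows were matched for 35 of the 44 genes, 38 windows in all. GGGCGG was found in 57.9% of these windows and in 32.7% of all 32851 windows of the same length, CCAAT in 34.2% and 33.9%, and TATAAA in 13.2% and 12.4%.

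The question of the design was how tumors of BAL101553-treated mice differ from those of controls. Collagen transcripts made up 1.59%, 1.73% and 1.84% of all counts in controls 1 to 3. They made up 2.79%, 2.83% and 2.76% in BAL101553 libraries 1 to 3. All BAL101553 libraries were thus above all controls, and the astrocyte-labelled libraries were far below both, at 0.149%, 0.148% and 0.160%. Of the 44 genes, 29 had enough counts for the test between BAL101553 and control, and 14 of these 29 were higher in BAL101553 and 0 lower (edgeR quasi-likelihood test, adjusted p under 0.05). The background over all 12633 genes tested was 8.64% higher and 6.09% lower, 14.7% in either direction, against 48.3% of the tested collagen genes. The median log2 fold change was 0.74 over the collagen genes and 0.02 over all genes, and 27 of the 29 estimates were above 0. The 3 BAL101553 libraries lay wholly above the 3 controls for 21 of the 29 genes and wholly below for 0, beside 20.1% and 19.6% of all genes tested. The number of calls rests on single controls. It fell to 2 of 32 tested without control 3 (background 1.18% higher) and to 7 of 32 without control 1 (background 2.59%). Without BAL101553 library 3 it was 9 of 30 (background 3.71%). In these 3 fits, 30, 27 and 27 of the collagen estimates were above 0.

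**Figure D1:**
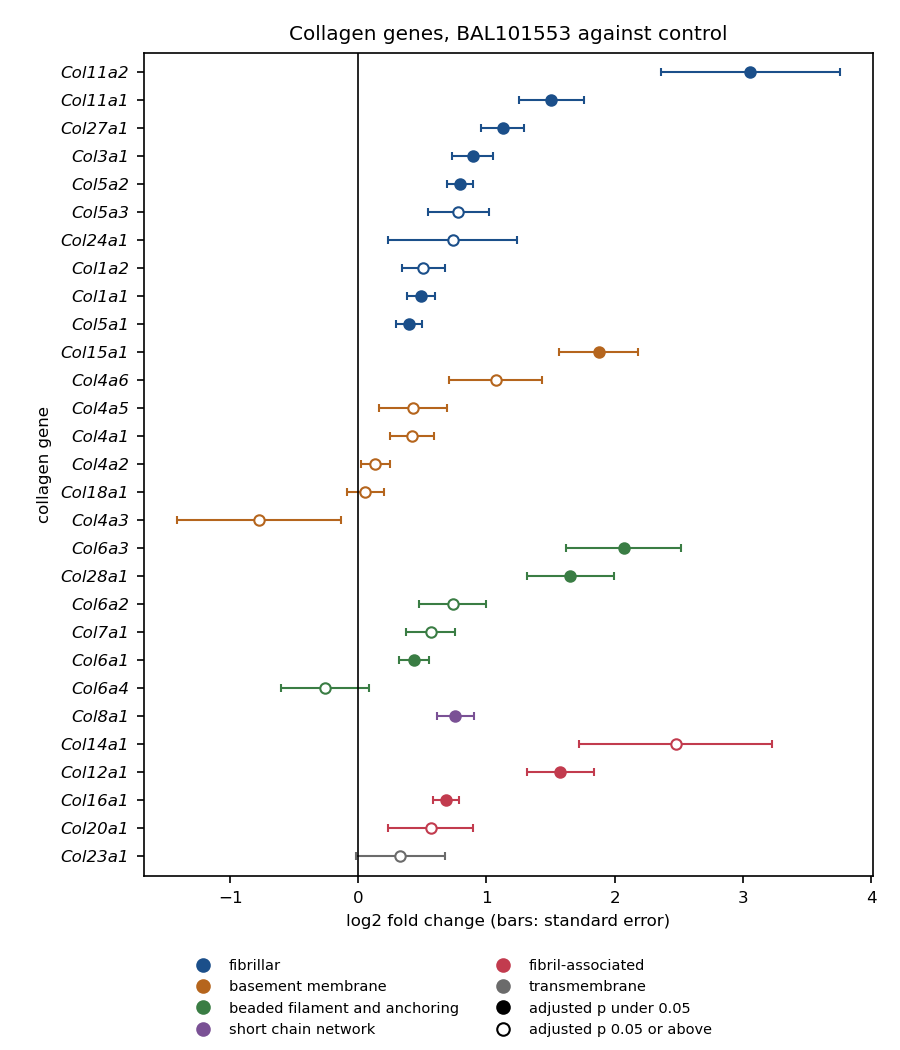
Log2 fold change of the 29 tested collagen genes in BAL101553 against control (x axis, bars are standard errors), grouped and colored by class. Filled points passed an adjusted p of 0.05: 14 genes are filled, all to the right of 0, and the only estimates left of 0 are *Col4a3* and *Col6a4*.

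Fibrillar chains, the main fiber-forming collagens, accounted for 7 of the 14 calls out of 10 tested. *Col1a1*, which encodes the major chain of type I collagen, stood at 4498, 3640 and 4162 CPM in controls 1 to 3 and at 5793, 5808 and 5599 CPM in BAL101553 libraries 1 to 3. The groups did not overlap, and the log2 fold change was 0.49 ± 0.11 (SE, n = 3 per group; edgeR adjusted p = 0.0295), a 1.40-fold rise. Its call was lost in 5 of the 6 fits that leave out 1 library and kept only without BAL101553 library 2. *Col1a2*, the partner chain, was at 2238, 2266 and 2449 CPM in controls and at 3245, 4048 and 2550 CPM in BAL101553. Its groups did not overlap either, but BAL101553 library 3 lay just above the highest control, and the test was not passed (log2 fold change 0.51 ± 0.17, edgeR adjusted p = 0.0754).

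*Col3a1*, the chain of type III collagen found beside type I in pliable tissue, rose more. Its level was 2289, 3176 and 3143 CPM in controls and 5879, 4476 and 5548 CPM in BAL101553, with no overlap. The log2 fold change was 0.89 ± 0.16 (edgeR adjusted p = 0.0159), or 1.85-fold. The call was lost without control 3 or without BAL101553 library 3.

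Type V chains, which nucleate fibrils and limit their width, both rose. *Col5a2* was at 973, 915 and 892 CPM in controls and 1543, 1752 and 1514 CPM in BAL101553. The controls were close together and well below the BAL101553 libraries, and *Col5a2* was the only one of the 14 genes called in all 6 fits that leave out 1 library (log2 fold change 0.80 ± 0.10, edgeR adjusted p = 0.00728). *Col5a1* was at 1292, 1312 and 1550 CPM in controls and 1835, 1783 and 1835 CPM in BAL101553, a log2 fold change of 0.40 ± 0.10 (edgeR adjusted p = 0.0396) that was called in none of these 6 fits. *Col5a3* gave 0.78 ± 0.24 and did not pass (edgeR adjusted p = 0.0624).

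Also called were 3 less abundant fibrillar chains. *Col11a1*, a chain that co-assembles with type V and type II collagen, was at 103, 57.6 and 53.0 CPM in controls and 217, 170 and 218 CPM in BAL101553, with control 1 nearest to the treated libraries (log2 fold change 1.51 ± 0.25, edgeR adjusted p = 0.0134). *Col27a1*, a fibrillar chain best known from cartilage, was at 54.7, 47.7 and 56.6 CPM in controls and 116, 88.0 and 143 CPM in BAL101553 (1.13 ± 0.17, edgeR adjusted p = 0.0104). Both kept their calls in each fit that leaves out 1 library, except without control 3. *Col11a2* passed on very few reads, with 1, 3 and 0 counts in controls and 18, 12 and 13 in BAL101553, a ratio of 8.79 with a 95% exact interval of 3.20 to 33.7 that covers counting error only (edgeR adjusted p = 0.0293). Its call was kept in 2 of the 6 fits that leave out 1 library, without control 2 or without BAL101553 library 2.

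**Figure D2:**
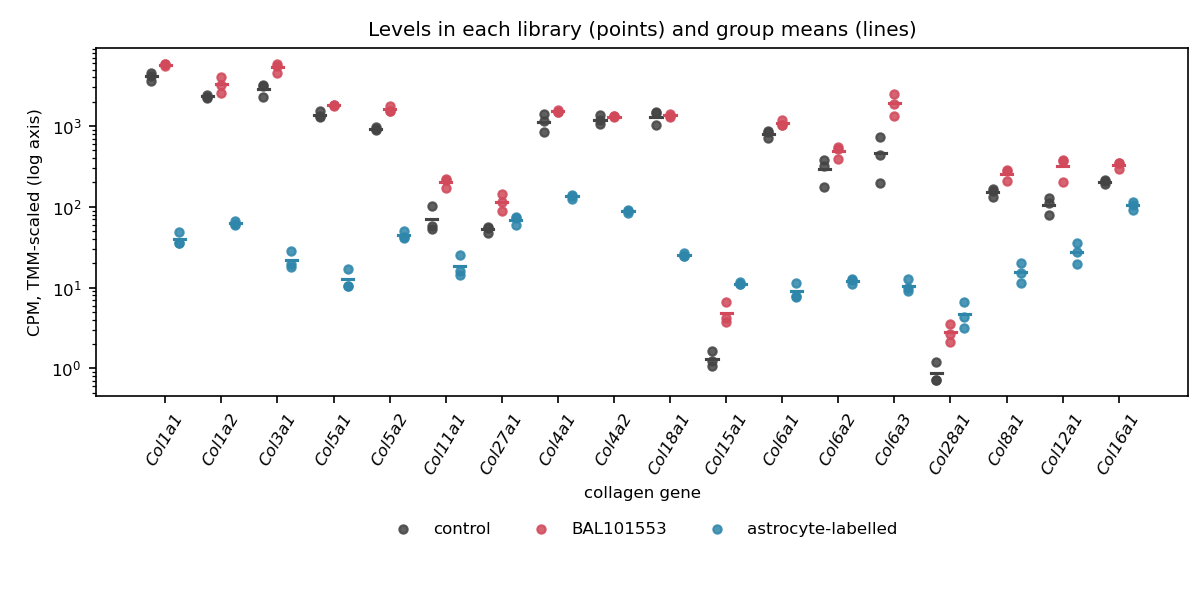
CPM (log axis) of 18 collagen genes in each of the 9 libraries, with group means as short lines. For *Col6a3* all BAL101553 libraries lie above all controls, for *Col18a1* they overlap, and for *Col15a1* and *Col28a1* the astrocyte-labelled mean is the highest of the 3 group means.

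Basement membrane chains contributed 1 call out of 7 tested. The network-forming pair of type IV collagen present in nearly all basement membranes did not pass. *Col4a1* was at 841, 1164 and 1403 CPM in controls and 1496, 1474 and 1575 CPM in BAL101553, without overlap (log2 fold change 0.42 ± 0.17, edgeR adjusted p = 0.127). *Col4a2* was at 1047, 1176 and 1374 CPM in controls and 1317, 1281 and 1331 CPM in BAL101553, with the highest value of all in control 3 (0.13 ± 0.11, edgeR adjusted p = 0.444). *Col18a1*, the source of the endostatin fragment, overlapped in the same way. Its controls were at 1024, 1428 and 1479 CPM and its BAL101553 libraries at 1417, 1310 and 1338 CPM (0.05 ± 0.14, edgeR adjusted p = 0.813). *Col4a5* was at 107, 228 and 169 CPM in controls and 267, 169 and 238 CPM in BAL101553, and its groups overlapped (0.43 ± 0.27, edgeR adjusted p = 0.296).

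The 1 basement membrane gene called was *Col15a1*, whose product links basement membranes to the fibers beneath. It was at 1.08, 1.25 and 1.64 CPM in controls and 3.73, 6.59 and 4.24 CPM in BAL101553, from 24 to 39 counts in controls and 109 to 167 in BAL101553. The lowest treated library was above the highest control by more than the range of the controls (log2 fold change 1.88 ± 0.31, edgeR adjusted p = 0.0133). The call was lost without control 1 or control 3.

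Type VI collagen forms beaded filaments around cells from 1 chain each of *Col6a1*, *Col6a2* and *Col6a3* or a relative of the last. *Col6a3* had the largest rise of any abundant collagen gene, at 196, 740 and 436 CPM in controls and 1341, 2512 and 1862 CPM in BAL101553. The highest control was still below the lowest treated library (log2 fold change 2.07 ± 0.45, edgeR adjusted p = 0.0248), and the call was lost without control 3 or without BAL101553 library 3. *Col6a1* changed less, from 704, 852 and 863 CPM to 1041, 1190 and 1022 CPM (0.43 ± 0.12, edgeR adjusted p = 0.0441), and its call was lost in all 6 fits that leave out 1 library. *Col6a2* went from 177, 382 and 321 CPM to 396, 545 and 518 CPM and did not pass (0.74 ± 0.26, edgeR adjusted p = 0.0930). *Col28a1*, a related beaded filament chain, was scarce but called, at 0.718, 1.21 and 0.716 CPM in controls and 2.63, 3.59 and 2.15 CPM in BAL101553 (1.65 ± 0.34, edgeR adjusted p = 0.0220), and lost its call without control 1 or control 3.

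Of the fibril-associated chains, which bind to the surface of fibers, 2 of 4 tested were called. *Col12a1* was at 112, 79.8 and 127 CPM in controls and 377, 367 and 204 CPM in BAL101553, where library 3 lay between the controls and the other treated libraries (log2 fold change 1.58 ± 0.26, edgeR adjusted p = 0.0133). *Col16a1* was at 211, 192 and 213 CPM in controls and 346, 344 and 294 CPM in BAL101553 (0.68 ± 0.10, edgeR adjusted p = 0.0104). Both lost their call only without control 3. *Col8a1*, a short chain collagen of vessel walls and the only gene of its class tested, rose from 132, 168 and 158 CPM to 282, 277 and 211 CPM (0.76 ± 0.14, edgeR adjusted p = 0.0179), a call lost without control 1 or control 3. The 1 transmembrane chain tested, *Col23a1*, overlapped between groups.

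The remaining 15 genes had too few counts for this test. Of these, 6 had 3 counts or fewer in each of the 6 tumor libraries, among them *Col9a1*, at 0 counts in all 6. Genes named next were chosen after their values were seen. BAL101553 library 2 stood apart for *Col26a1*, with 74 counts against 0 in the other 5 tumor libraries, and for *Col13a1*, with 29 counts against 0. *Col14a1*, a fibril-associated chain that was tested and not called (edgeR adjusted p = 0.0621), had 218 counts in the same library against 36 and 75 in the other BAL101553 libraries and 10 to 29 in controls. *Lum*, a small proteoglycan of fibroblasts, was at 4.46 CPM in that library and at most 0.404 CPM in the other 5. Without BAL101553 library 2, 13 of 31 tested collagen genes were called higher and 0 lower, 12 of them among the 14, beside 7.63% higher and 5.74% lower over all genes in that fit.

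Fibroblast markers with enough counts for the test moved in the same direction as the collagens. The 6 genes of the fibroblast list summed to between 4.53 and 6.71 CPM in controls and between 18.0 and 38.2 CPM in BAL101553. Most of this sum was *Dcn*. The 3 that had enough counts were all higher: *Dcn* (log2 fold change 2.11, edgeR adjusted p = 0.0148), *Dpt* (2.13, edgeR adjusted p = 0.0425) and *Islr* (2.54, edgeR adjusted p = 0.0232). Their calls were kept in 4, 1 and 3, respectively, of the 6 fits that leave out 1 library, and each was lost without control 1 and without control 3. *Lum* overlapped between the groups, while *Pi16* lay wholly higher in BAL101553, at no more than 0.434 CPM. *Slc6a13*, a marker of brain fibroblasts, was at most 0.0379 CPM in any tumor library. In astrocyte-labelled libraries 1 to 3 it was at 13.0, 14.8 and 16.9 CPM. Of the 6 pericyte genes only *Rgs5* had enough counts, and it was lower, at 1.44, 0.276 and 0.854 CPM against 3.95, 2.35 and 7.07 CPM in controls (log2 fold change -2.36, edgeR adjusted p = 0.0371), while the other 5 overlapped between the groups. The endothelium list summed to between 736 and 859 CPM in controls and between 515 and 644 CPM in BAL101553. Most of it was *Cdh5*, which was lower (-0.52, edgeR adjusted p = 0.0195). *Flt1* overlapped between the groups, as did *Cldn5*, *Pecam1* and *Slco1c1*, which were at most 1.48, 1.21 and 0.568 CPM in the tumor libraries. The astrocyte list summed to between 940 and 971 CPM in controls and between 681 and 797 CPM in BAL101553. Most of it was *Gja1*, which was lower (-0.37, edgeR adjusted p = 0.0363). *Aldh1l1* lay wholly lower but did not pass (edgeR adjusted p = 0.0508), and *Aqp4*, *Slc1a2*, *Aldoc* and *Gfap* overlapped between the groups. *Slc1a3* of the same list, at most 2.96 CPM in these libraries, was higher (1.57, edgeR adjusted p = 0.0403). Of 4 tested microglia and macrophage genes only *P2ry12*, at most 2.69 CPM in these libraries, was called, and it was lower (-1.88, edgeR adjusted p = 0.0313). *Csf1r* lay wholly higher and did not pass (edgeR adjusted p = 0.215). None of 4 tested oligodendrocyte genes passed, though *Mbp*, *Mag* and *Cldn11* lay wholly lower. Of the 6 fits that leave out 1 library, *Rgs5* and *Cdh5* were called in 3 each and *Gja1*, *Slc1a3* and *P2ry12* in 1 each. The part of other cell types in the collagen values was not tested.

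Levels of different chains were then compared per kb of transcript, taking for each gene the transcript with the longest coding sequence. In controls the order began with *Col1a1* at 691 ± 72.9 CPM per kb (SD, n = 3), *Col3a1* at 516 ± 90.4 and *Col1a2* at 433 ± 21.4, followed by *Col18a1* at 234 ± 44.5 and *Col6a1* at 197 ± 21.7. *Col3a1* overlapped *Col1a2*, and *Col18a1* overlapped *Col6a1*. In BAL101553, *Col1a1* at 967 ± 19.7 CPM per kb and *Col3a1* at 953 ± 132 overlapped at the top, with *Col1a2* at 614 ± 140 below both. *Col6a3* stood there at 189 ± 58.1 CPM per kb, next to *Col4a2* at 203 ± 4.03, from which it did not separate.

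Ratios between chains that share a molecule show which chains moved unequally. *Col6a3* to *Col6a1* was 0.113, 0.352 and 0.205 in controls and 0.523, 0.856 and 0.739 in BAL101553, without overlap. *Col1a1* to *Col1a2* averaged 1.60 ± 0.19 in controls and 1.63 ± 0.34 in BAL101553 (SD, n = 3 each) and overlapped (exact permutation test, two-sided, p = 1.0). The ratio of *Col5a1* to *Col5a2* was lower in all BAL101553 libraries, 0.90 ± 0.08 against 1.18 ± 0.17, as was that of *Col4a5* to *Col4a6*, at 5.62, 8.81 and 6.05 against 10.5, 10.4 and 9.06 in controls. *Col4a1* to *Col4a2* was higher in all of them, 1.13 ± 0.02 against 0.91 ± 0.11. For these 3 ratios and *Col6a3* to *Col6a1* the two-sided exact permutation p was 0.1, the smallest that 3 against 3 libraries allow, and 0.15 after adjustment over 6 ratios, so none could pass 0.05. The level of a ratio depends on the transcript lengths used: with the length of all annotated exons the control mean of *Col1a1* to *Col1a2* was 3.35. The difference between groups in log2 ratio does not.

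**Figure D3:**
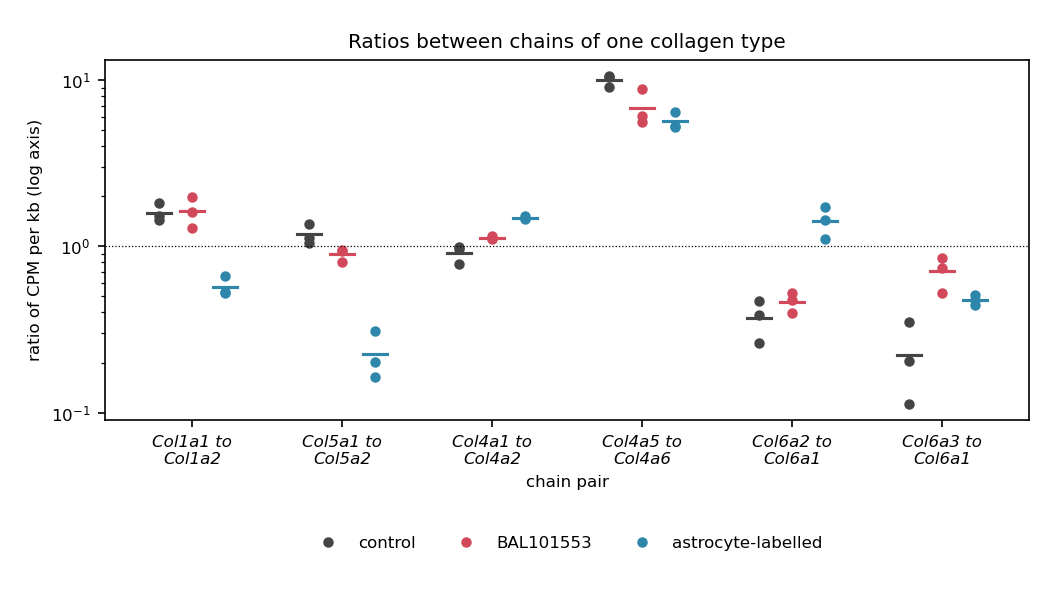
Ratio of CPM per kb (log axis) between 2 chains of 1 collagen type in each library, with group means as short lines and a dotted line at 1. *Col6a3* to *Col6a1* separates controls from BAL101553, whereas *Col1a1* to *Col1a2* does not. With the transcript lengths used here, *Col1a1* to *Col1a2* lies below 1 in the 3 astrocyte-labelled libraries, a position that depends on these lengths.

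The chains of type IV collagen lie in pairs that are transcribed in opposite directions. On GRCm38, the annotated start sites of *Col4a1* and *Col4a2* on chromosome 8 are 21 bases apart, those of *Col4a3* and *Col4a4* on chromosome 1 are 72 bases apart, and those of *Col4a5* and *Col4a6* on chromosome X are 1309 bases apart. *Col4a6*, which was not called, was at 10.4, 22.2 and 19.0 CPM in controls and 48.3, 19.6 and 40.0 CPM in BAL101553, and its partner *Col4a5* was likewise lowest in library 2 among the treated libraries.

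Genes that process or bind collagen were then counted in BAL101553 against control. Of 42 such genes 36 were tested, and 5 were higher and 1 lower, beside 8.64% higher and 6.09% lower over all genes tested. Their median log2 fold change was 0.07, against 0.02 over all genes. Cross-linking enzymes had 2 of 5 higher. *Lox*, lysyl oxidase, which starts cross-links between collagen molecules, was at 41.0, 35.7 and 48.4 CPM in controls and 386, 142 and 215 CPM in BAL101553 (log2 fold change 2.57 ± 0.34, edgeR adjusted p = 0.00787). *Loxl2*, of the same family, rose by 0.78 ± 0.19 (edgeR adjusted p = 0.0363), and its call was kept in 1 of the 6 fits that leave out 1 library.

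Among 18 tested genes for folding and modification of the chains, 2 were higher, a share near the 8.64% of all genes tested. *P3h2*, a prolyl 3-hydroxylase, was at 7.31, 7.81 and 8.84 CPM in controls and 23.4, 38.9 and 22.9 CPM in BAL101553 (1.84 ± 0.23, edgeR adjusted p = 0.00728). *P4ha3*, a subunit of prolyl 4-hydroxylase, was at no more than 3.80 CPM and gave 2.10 ± 0.43 (edgeR adjusted p = 0.0219), a call kept in 3 of the 6 fits that leave out 1 library. None of 6 tested genes for propeptide removal passed. Of 7 tested receptors, *Ddr2*, a tyrosine kinase that binds fibrillar collagen, rose by 0.58 ± 0.10 (edgeR adjusted p = 0.0159), and lost its call without control 1 or control 3. *Itgb1*, the shared beta subunit of the collagen-binding integrins, fell from 4797, 3942 and 4344 CPM to 2468, 2303 and 2310 CPM (-0.88 ± 0.11, edgeR adjusted p = 0.00728). *Lox*, *P3h2* and *Itgb1* were called in all 6 fits that leave out 1 library.

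The second comparison set the astrocyte-labelled libraries against BAL101553, and shares the BAL101553 libraries with the first. Here 85.1% of 15314 genes tested were called, 46.3% higher and 38.9% lower, so that a call is close to the norm. Of 41 collagen genes tested, 16 were higher and 22 lower in the astrocyte-labelled libraries, and the median log2 fold change was -1.23 against 0.18 over all genes. The astrocyte-labelled libraries lay wholly above BAL101553 for 17 of the 41 and wholly below for 22, beside 47.6% and 40.2% of all genes tested. The 3 genes not called were *Col13a1*, *Col14a1* and *Col26a1*. For *Col13a1* and *Col26a1* the BAL101553 counts came from library 2 alone.

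The chains that led the tumor libraries were among the lowest relative to BAL101553. *Col3a1* was at 17.9, 19.7 and 28.6 CPM in the astrocyte-labelled libraries (log2 fold change -7.89 ± 0.27, edgeR adjusted p = 8.51e-08), *Col1a1* at 35.6, 35.2 and 49.3 CPM (-7.15 ± 0.20, edgeR adjusted p = 3.45e-08) and *Col5a1* at 10.5, 10.4 and 16.9 CPM (-7.16 ± 0.24, edgeR adjusted p = 7.53e-08). *Col6a3*, at 9.09, 9.93 and 12.7 CPM (-7.48 ± 0.30, edgeR adjusted p = 1.73e-07), and *Col7a1*, the chain of anchoring fibrils, at 11.7, 13.6 and 15.5 CPM (-6.92 ± 0.21, edgeR adjusted p = 4.77e-08), complete the 5 largest falls. The other fixed chains that fell did so by less. *Col6a1* was at 7.74, 7.93 and 11.6 CPM, with a log2 fold change of -6.89, while *Col4a5* was at 28.9, 28.5 and 31.9 CPM, with -2.90. Between them lay *Col18a1* (-5.73), *Col1a2* (-5.69), *Col6a2* (-5.32), *Col5a2* (-5.15), *Col8a1* (-4.04), *Col4a2* (-3.88), *Col12a1* (-3.50) and *Col4a1* (-3.48), each with an edgeR adjusted p under 0.05. *Col15a1* went the other way, at 11.0, 11.0 and 11.6 CPM, a rise of 1.23 ± 0.22 (edgeR adjusted p = 0.000900).

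The 5 largest rises were in chains nearly absent from tumor cells. *Col9a2*, a chain of fibril-associated type IX collagen, had 4 counts over the BAL101553 group and 2948 over the astrocyte-labelled group, a ratio of 742 with a 95% exact interval of 290 to 2726. *Col9a1* had 0 counts in BAL101553 and 73, 61 and 43 in the astrocyte-labelled libraries, at least 59.4-fold higher against a floor of 3 counts over the group. *Col8a2*, the second type VIII chain, was at 73.7, 69.8 and 110 CPM and at most 0.274 CPM in BAL101553 (log2 fold change 9.25 ± 0.38, edgeR adjusted p = 2.07e-07). *Col11a2* was at 159, 178 and 146 CPM (8.37 ± 0.17, edgeR adjusted p = 1.05e-08), and *Col6a5*, a relative of *Col6a3*, was at 28.2, 23.1 and 31.7 CPM (7.90 ± 0.25, edgeR adjusted p = 6.14e-08).

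**Figure D4:**
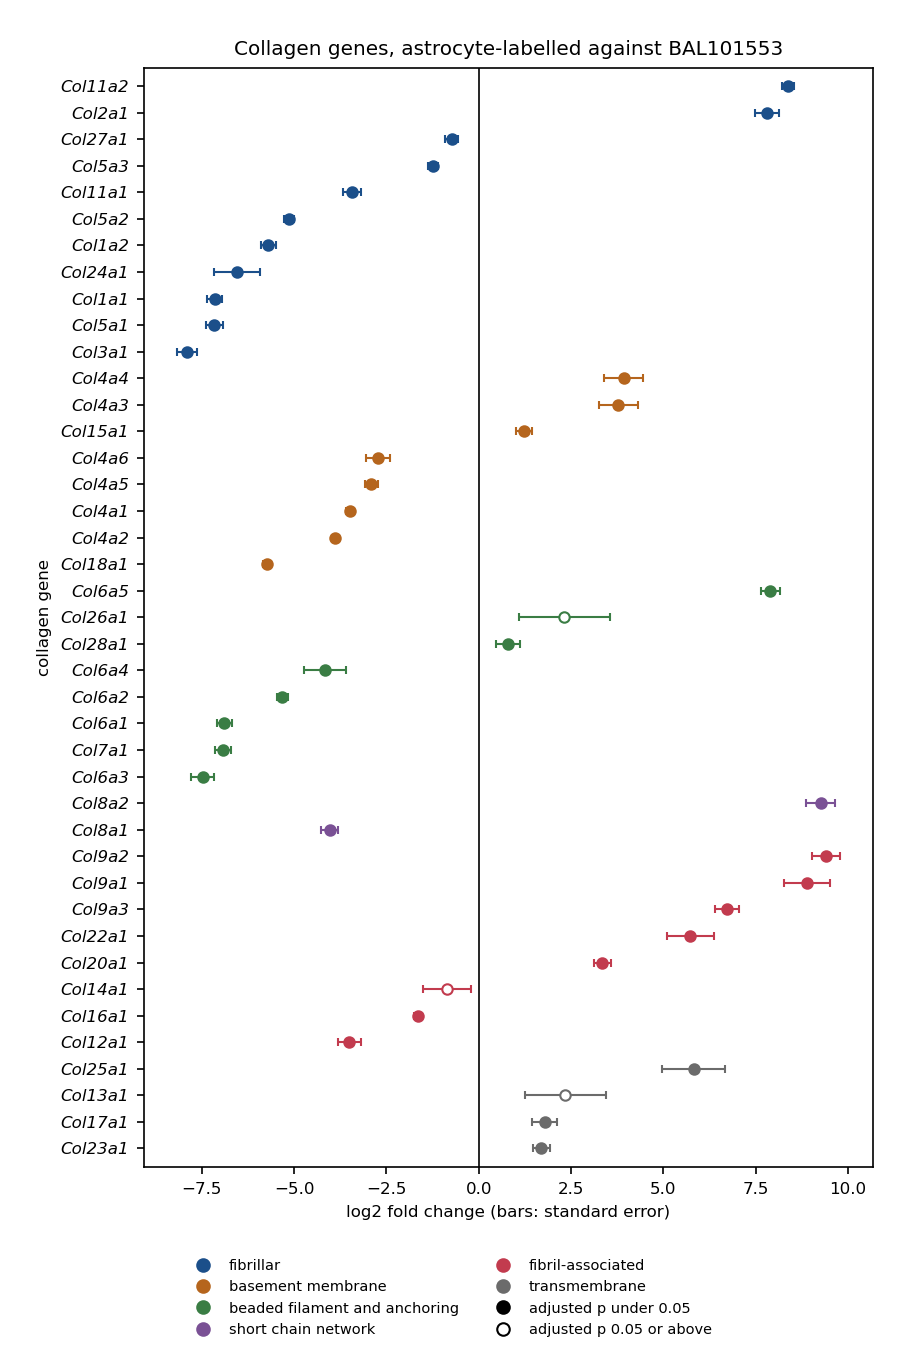
Log2 fold change of the 41 tested collagen genes in the astrocyte-labelled libraries against BAL101553 (x axis, bars are standard errors), grouped and colored by class. Filled points passed an adjusted p of 0.05; 38 are filled, and most classes hold genes on both sides of 0. Estimates for genes at or near 0 counts in BAL101553, such as *Col9a1*, depend on the prior count of the fit.

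The make-up of collagen transcripts was thus unlike in the astrocyte-labelled libraries. Fibrillar chains gave 63.5% ± 2.97 of the summed collagen CPM per kb in controls and 65.4% ± 1.46 in BAL101553, against 35.1% ± 0.95 in the astrocyte-labelled libraries (SD, n = 3 each). Fibril-associated chains gave 1.57% ± 0.17 and 1.95% ± 0.24 in the tumor groups and 26.7% ± 1.03 in the astrocyte-labelled libraries. Basement membrane chains made up 19.8% ± 2.35 in controls, 15.3% ± 0.97 in BAL101553 and 18.8% ± 0.66 in the astrocyte-labelled libraries. *Col9a3* at 30.0 ± 4.35 CPM per kb and *Col11a2* at 29.9 ± 2.98 led the astrocyte-labelled order without separating from each other, followed by *Col4a1* at 20.3 ± 1.16. As given above, these libraries hold markers of oligodendrocytes, pericytes, microglia, endothelium and fibroblasts besides those of astrocytes. The part of each in the collagen values was not tested.

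**Figure D5:**
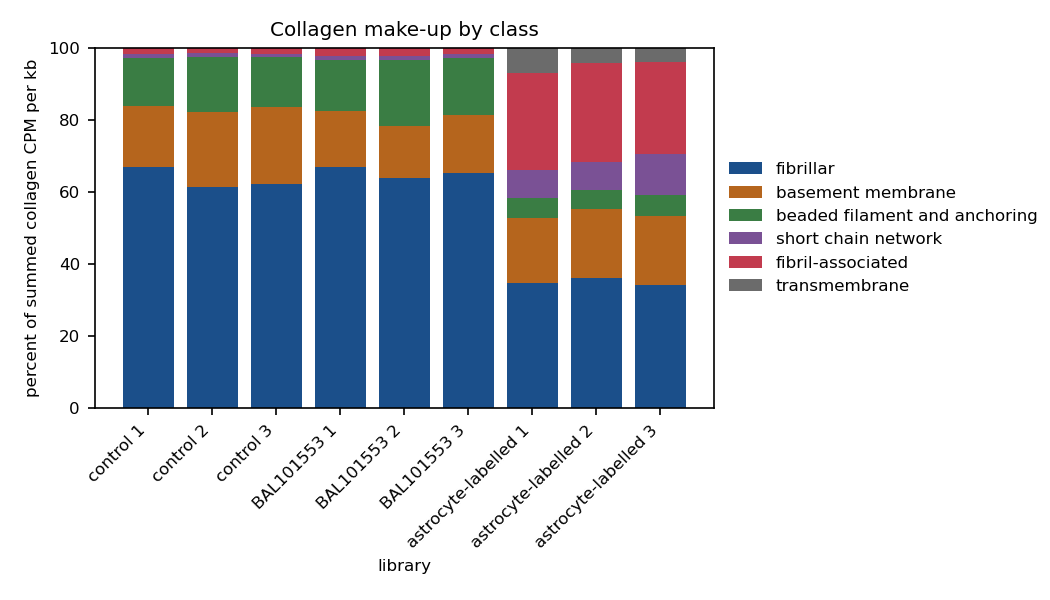
Share of each collagen class in the summed collagen CPM per kb (percent, y axis) in each of the 9 libraries. Fibrillar chains take between 61.5% and 66.9% in the tumor libraries and between 34.3% and 36.1% in the astrocyte-labelled ones, where fibril-associated, short chain and transmembrane chains take more.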

How the data were processed

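RNA was sequenced from 9 libraries in 3 groups of 3. Per the study's methods, the authors made stranded libraries with 50-base reads, mapped them with TopHat to mm10 (the submitters' notes name the build and HTSeq 0.6.1), and used HTSeq and featureCounts to count them. What the authors deposited is a table of raw counts, 1 row per gene symbol, with no scaling. The annotation and whether counting used strand are not given in the sources used here, and 10 collagen genes overlap an exon of a gene on the opposite strand and 3 of one on the same strand, whose reads may be shared.

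Counts were tested with edgeR 4.0.16 in R 4.3.3 (filterByExpr, TMM, quasi-likelihood test, two-sided, Benjamini-Hochberg adjustment over all genes tested, threshold 0.05), fitting only the 2 groups compared. SE is the log2 fold change over the square root of F. CPM in the text are scaled by TMM over all 9 libraries, and levels per kb use GENCODE vM21 transcripts, in which all 44 genes were found. Intervals are 95% exact intervals of counts, and floors (3 counts) and intervals cover counting error only. Scripts were tested on simulated data. DESeq2 1.42.0, limma 3.58.1, other scalings and filters, left-out libraries and the replicate number as a block were alternatives. With totals of 22919523 counts or more, counting error is small relative to the count for abundant chains and large under 10 counts. How it compares there with the spread between libraries was not tested. Names turned into dates, 27 in all and at most 0.44% of a library, were kept.

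The members, classes and lists were chosen with earlier results of these data known. Genes named were the collagen genes called in BAL101553 against control, 15 fixed chains (*Col1a1*, *Col1a2*, *Col3a1*, *Col5a1*, *Col5a2*, *Col4a1*, *Col4a2*, *Col4a5*, *Col6a1*, *Col6a2*, *Col6a3*, *Col8a1*, *Col12a1*, *Col15a1* and *Col18a1*), the 5 largest rises and falls in the astrocyte-labelled comparison whose groups did not overlap, and called genes of 4 collagen processing lists. Any other gene was named after its values were seen. The in vitro libraries of the study were not analysed here.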

Additional observations from a re-analysis of the deposited data

How the results depend on the processing

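Collagen genes called higher in BAL101553 against control numbered 14. They numbered 13 to 20 under the other tools, scalings and filters and in a model of all 9 libraries, with 0 lower in each. In these fits 27 to 41 collagen genes were tested, and 6.36% to 11.8% of all genes were called higher. The model of all 9 libraries called 17 of 41, 12 of them among the 14, beside 10.9% of all genes. DESeq2 called 20 and limma 15, beside 11.8% and 8.80% of all genes called higher, against 8.64% with edgeR. Leaving out 1 library, or 1 in each group, gave 0 to 13, with fewer samples in each fit and between 0.00787% and 7.65% of all genes called higher, and gave 0 when control 3 was left out together with BAL101553 library 1 or 3, where 0.00787% and 0.0237% of all genes were called higher. *Col18a1* turned sign without control 1, to -0.098, and with BAL101553 library 1, 2 or 3 also left out, to -0.129, -0.0711 and -0.0790. It was called in no setting, and over all 23 alternatives its log2 fold change ran from -0.129 to 0.168. Library totals in place of TMM moved the median of all genes from 0.02 to 0.10 in the first comparison and from 0.18 to 0.39 in the second. In the astrocyte-labelled comparison 16 of 41 tested were higher, beside 46.3% of all genes. When every library had to hold 10 counts, 6 of 28 were higher, beside 41.7% of all genes. That filter removes genes near 0 in BAL101553. Leaving out libraries gave 15 to 18 higher and 21 to 22 lower of 41 tested. In these fits 43.0% to 46.8% of all genes were called higher and 35.3% to 39.0% lower.

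The replicate numbers are shared between groups. With a replicate block 12 collagen genes were called higher in BAL101553, 10 of them among the 14, beside 6.84% of all genes. In the astrocyte-labelled comparison the block gave 16 higher and 22 lower of 41 tested, beside 45.7% and 38.0% of all genes. Deviations of same-numbered control and BAL101553 libraries correlated at 0.14, 0.01 and 0.15. Controls 1 and 3 correlated best with the BAL101553 library of their own number, and control 2 with BAL101553 library 3. These values do not decide whether the libraries are paired. The labels give the numbers no shared source, so the main fit has no block. Alternatives for the collagen processing genes and cell type markers were added after seeing the data. Genes under about 10 counts per library, such as *Col11a2* in controls, are limited by depth.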
